A study of Mus musculus with 9 samples.

Results

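Zeb1, Zeb2, Snai1, Snai2, Twist1 and Twist2 encode the transcription factors best known for driving epithelial to mesenchymal transition, and their RNA was followed across 9 libraries of sorted mouse skin cells. The members were taken by gene symbol, 6 of the 23361 genes listed, and all 6 had enough fragments to be tested. The libraries formed 3 groups of 3, labelled UVB, Active and Quiescent, UVB being the part of sunlight that burns skin. All were poly(A)-selected RNA from a flow sort of cells that the labels call melanocyte stem cells, a reserve in the hair follicle that renews its pigment cells. The mice of all 3 groups carried a genotype labelled TBPT, whose alleles the labels do not spell out, and were 10 weeks old. A single treatment entry, naming both chemical depilation and UVB, was given to every sample alike, so the labels do not say which group was depilated. The sort markers, the driver of any Cre and the number of animals per library are not stated in the labels, and p-values therefore measure the spread between libraries, which may be technical.

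Epithelial to mesenchymal transition is the programme by which cells loosen their junctions and gain mesenchymal traits. SNAI and ZEB proteins are zinc finger repressors that bind short E-box sites in genes of epithelial junctions such as Cdh1, whereas TWIST proteins are basic helix-loop-helix factors that bind DNA as dimers with E proteins. In the melanocyte lineage, SNAI2 and ZEB2 belong to the normal programme of melanoblasts and melanocytes, and in melanoma a shift from ZEB2 and SNAI2 to ZEB1 and TWIST1 is a known switch. Twist1 and Twist2 are also long known as genes of the dermal mesenchyme.

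Library totals ran from 21045070 to 35131778 fragments, and levels are given as CPM, fragment counts scaled to a common library total with TMM factors. The cell type label was checked against 10 pigment lineage markers, all of them with some fragments in each group. Most were low in Quiescent, with means of 2.16 CPM for Sox10, 0.822 for Pax3, 2.03 for Tyr and 0.467 for Mc1r. Mitf and Dct had the highest Quiescent means, 55.0 and 17.6 CPM. The summed level of the 10 markers was 897 to 1067 CPM in the UVB libraries, 7765 to 12637 CPM in Active and 74.4 to 122 CPM in Quiescent. The sum of 8 dermal fibroblast markers ran the other way, at 22011 to 34436 CPM in UVB, 4825 to 6139 CPM in Active and 335838 to 454359 CPM in Quiescent. The UVB libraries held 23353 to 30356 fragments of Xist and 0 to 2 of Y-linked genes, against 4 to 12 of Xist and 4106 to 5591 of Y-linked genes in the Active and Quiescent libraries, so sex and UVB cannot be told apart in either comparison of UVB.

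Of the 6 factors, 4 were lower in Active than in Quiescent and none was higher, by edgeR's quasi-likelihood test with a Benjamini-Hochberg adjusted p below 0.05. In that comparison 58.3% of the 15078 genes tested were called in either direction and 29.2% were called lower. In UVB against Quiescent, 3 factors were lower and 1 was higher, where 49% of all genes were called, 23.2% lower and 25.8% higher. In UVB against Active, 3 factors were higher and none was lower, where 24% of all genes were called and 14.8% were called higher. With such shares called, that a given factor passed the test says little about the factors as a set, and the sizes below carry the description. The libraries of both groups did not overlap for 57.6% of all genes in UVB against Quiescent, 66.2% in Active against Quiescent and 46.7% in UVB against Active, so that lack of overlap in a single gene, given below as a description, was common. In bulk RNA, fewer cells of a type and less RNA per cell cannot be told apart.

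**Figure D1:**
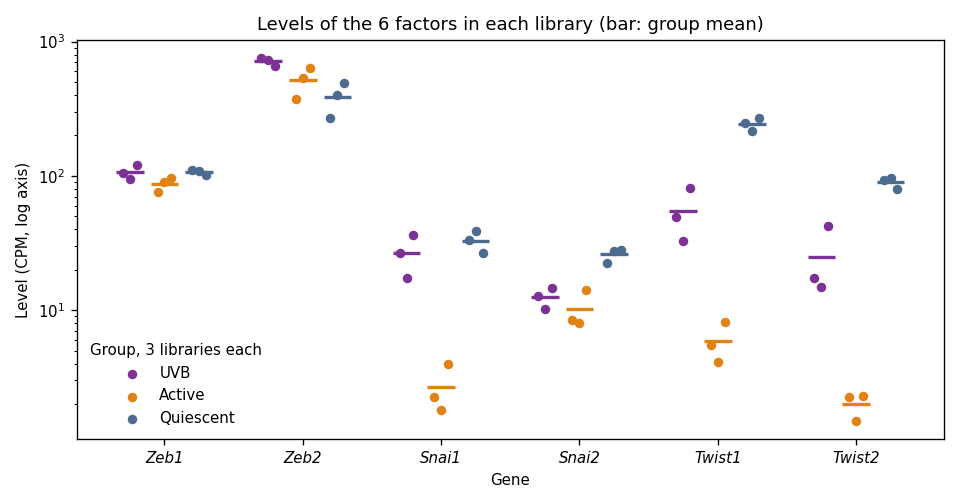
Level of each factor in each library, in CPM on a log axis, with 1 point per library and a bar at the mean of the 3 libraries of a group. Twist1, Twist2 and Snai1 lie far lower in Active than in the other groups, Snai2 is highest in Quiescent, Zeb2 is highest in UVB, and Zeb1 stays between 75.7 and 120 CPM in all 9 libraries.

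Twist1, a basic helix-loop-helix factor of cranial and dermal mesenchyme, showed a more than 40-fold span. Its level was 49.2, 32.7 and 81.4 CPM in the UVB libraries, 5.49, 4.10 and 8.22 CPM in Active, and 249, 214 and 269 CPM in Quiescent. The 3 groups did not overlap, with UVB between Active and Quiescent. Twist1 was 4.49-fold lower in UVB than in Quiescent (log2 fold change -2.17 ± 0.34 SE, edgeR adjusted p = 0.0010) and 41.2-fold lower in Active than in Quiescent (-5.37 ± 0.40, adjusted p = 1.4e-05). It was 9.19-fold higher in UVB than in Active (3.20 ± 0.37, edgeR adjusted p = 0.0011).

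Twist2, the paralog also called Dermo1, had the same order of groups at lower levels. It measured 17.4, 14.8 and 42.5 CPM in UVB, 2.28, 1.49 and 2.29 CPM in Active, and 93.9, 96.1 and 80.4 CPM in Quiescent. The Active values rest on 73, 41 and 56 fragments, and UVB replicate 3 stood well over the other UVB libraries for both TWIST genes. The fold change was 3.62-fold lower in UVB than in Quiescent (-1.86 ± 0.37, edgeR adjusted p = 0.0034), 44.6-fold lower in Active than in Quiescent (-5.48 ± 0.45, adjusted p = 2.0e-05) and 12.3-fold higher in UVB than in Active (3.62 ± 0.42, adjusted p = 0.0012). Without UVB replicate 3, Twist2 was 5.59-fold lower in UVB than in Quiescent and 7.95-fold higher in UVB than in Active.

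Since both TWIST genes and Snai1 moved far, their promoters are shown, as 250 bases before to 50 bases after the start site from RefSeq on GRCm38.p6, in the direction of the gene. Capitals mark E-boxes (CANNTG) and the CCAAT box (CCAAT or ATTGG), a common element of mammalian promoters. Positions are those of chr12:33957421-33957720 on the plus strand for Twist1, chr1:91801211-91801510 on the plus strand for Twist2 and chr2:167537945-167538244 on the plus strand for Snai1.
Twist1: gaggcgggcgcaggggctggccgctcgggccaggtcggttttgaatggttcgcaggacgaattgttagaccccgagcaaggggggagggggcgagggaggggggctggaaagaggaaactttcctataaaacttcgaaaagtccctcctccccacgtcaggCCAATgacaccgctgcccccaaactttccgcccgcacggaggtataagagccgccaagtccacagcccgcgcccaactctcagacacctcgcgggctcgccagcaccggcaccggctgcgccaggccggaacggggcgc
Twist2: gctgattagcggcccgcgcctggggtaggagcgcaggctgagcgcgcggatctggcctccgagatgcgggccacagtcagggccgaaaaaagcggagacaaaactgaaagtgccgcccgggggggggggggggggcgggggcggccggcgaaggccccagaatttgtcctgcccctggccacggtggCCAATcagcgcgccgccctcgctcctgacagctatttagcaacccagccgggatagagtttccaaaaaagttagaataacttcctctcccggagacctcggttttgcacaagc
Snai1: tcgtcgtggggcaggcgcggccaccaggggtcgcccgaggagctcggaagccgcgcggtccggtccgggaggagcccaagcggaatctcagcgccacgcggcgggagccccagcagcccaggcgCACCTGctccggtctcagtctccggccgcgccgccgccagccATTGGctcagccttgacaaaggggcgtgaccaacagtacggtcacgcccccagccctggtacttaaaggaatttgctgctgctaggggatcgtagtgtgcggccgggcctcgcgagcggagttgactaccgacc

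Each of the 3 windows held 1 CCAAT box, counted on both strands, at position -89 from the start site in Twist1, -63 in Twist2 and -84 in Snai1 (the first base of the box; 0 is the first base of the transcript). A CCAAT box was found in 37.4% of the 32851 mouse promoter windows of the same length. The windows of Twist1 and Twist2 held no CANNTG, which 72.3% of all windows held, and that of Snai1 held a single E-box, CACCTG at -126, the form bound by SNAI and ZEB proteins. CACCTG or its reverse complement CAGGTG stood in 20.2% of all windows. The motifs were chosen after the expression values were seen, and a match of letters is a description of the window.

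Snai1, a repressor with a very short-lived protein, was lower in Active than in both other groups. It measured 26.4, 17.3 and 36.0 CPM in UVB, 2.28, 1.81 and 3.97 CPM in Active, and 33.0, 38.9 and 26.8 CPM in Quiescent. UVB and Quiescent overlapped, and every Active library lay under every library of the other groups, on 73, 50 and 97 fragments. Snai1 was 12.3-fold lower in Active than in Quiescent (-3.62 ± 0.37, edgeR adjusted p = 5.6e-05) and 9.94-fold higher in UVB than in Active (3.31 ± 0.36, adjusted p = 0.0010). Between UVB and Quiescent the log2 difference was -0.31 ± 0.32 with a 95% interval of -1.05 to 0.43 (edgeR adjusted p = 0.462), so a change of 2-fold was not excluded.

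Snai2, also called Slug, works in neural crest and melanoblasts and is required for normal pigmentation. It measured 12.8, 10.2 and 14.7 CPM in UVB, 8.48, 8.01 and 14.1 CPM in Active, and 22.4, 27.5 and 28.3 CPM in Quiescent. UVB and Active overlapped, and both lay under every Quiescent library. Snai2 was 2.08-fold lower in UVB (-1.05 ± 0.24, edgeR adjusted p = 0.0070) and 2.56-fold lower in Active (-1.35 ± 0.25, adjusted p = 0.0015) than in Quiescent, and UVB and Active differed by 0.30 ± 0.24 on the log2 scale (adjusted p = 0.404). With library totals alone, without scaling factors, the UVB value was -0.33 with an adjusted p of 0.237. Snai3, the remaining SNAI gene of the mouse, had 8 fragments over the 3 UVB libraries, 6 in Active and 2 in Quiescent and was too low to test.

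Zeb2, a repressor that melanoblasts need for differentiation, was the factor called higher in UVB than in Quiescent. It measured 750, 733 and 657 CPM in UVB, 374, 537 and 631 CPM in Active, and 269, 400 and 488 CPM in Quiescent. Every UVB library lay over every library of the other groups, while Active and Quiescent overlapped and each spread widely. Zeb2 was 1.85-fold higher in UVB than in Quiescent (0.89 ± 0.25, edgeR adjusted p = 0.016), and when 1 library at a time was left out the log2 fold change ran from 0.68 to 1.09 with an adjusted p of 0.049 or below. The difference of Active from Quiescent was 0.41 ± 0.24 (edgeR adjusted p = 0.175), and that of UVB from Active was 0.47 ± 0.24 (adjusted p = 0.194).

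Zeb1, the paralog linked to dedifferentiation in melanoma, varied least. It measured 105, 94.4 and 120 CPM in UVB, 75.7, 89.8 and 95.8 CPM in Active, and 111, 109 and 102 CPM in Quiescent. All Active libraries lay under all Quiescent libraries, by 0.30 ± 0.12 on the log2 scale (95% interval of the fall 0.02 to 0.59, edgeR adjusted p = 0.060). That difference passed the threshold under RLE scaling factors (adjusted p = 0.041) and in DESeq2 (adjusted p = 0.026), and turned to 0.44 higher in Active with library totals alone (adjusted p = 0.012). UVB differed from Quiescent by -0.02 ± 0.12 (edgeR adjusted p = 0.920) and from Active by 0.29 ± 0.12 (adjusted p = 0.123), and the first of these has an interval of -0.30 to 0.26.

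**Figure D2:**
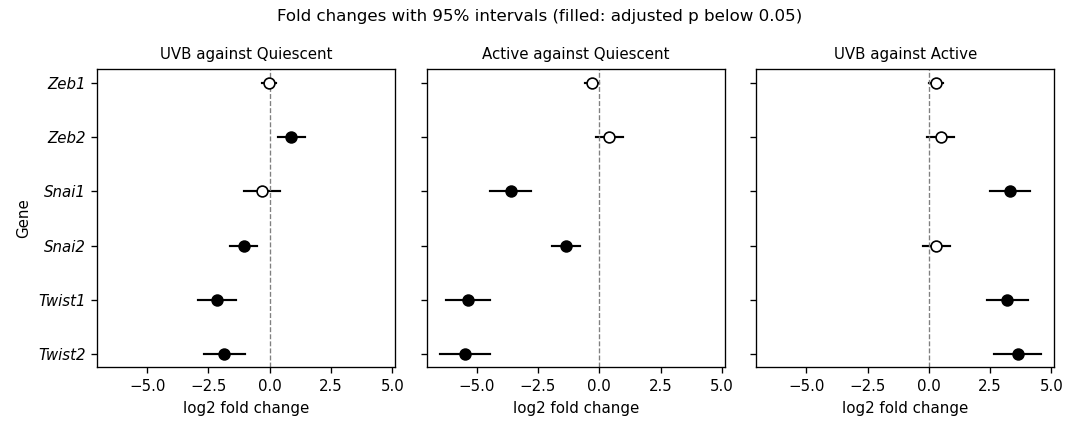
Log2 fold changes of the 6 factors in each comparison, from edgeR, as points with 95% intervals; filled points passed an adjusted p of 0.05. Twist1 and Twist2 stand near -5.4 in Active against Quiescent and near -2 in UVB against Quiescent, and the direction of Zeb1 in both of these, and of Snai1 in UVB against Quiescent, turns when library totals are used without scaling factors.

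TMM scaling bears on every contrast with Quiescent, because the Quiescent libraries had factors of 0.660 to 0.748 against 1.163 to 1.225 in the UVB and Active libraries. With library totals alone, all genes tested had a median log2 fold change of 0.742 in UVB against Quiescent and 0.757 in Active against Quiescent, in place of 0.021 and 0.007. Of the genes called, 87.5% and 79.7% were then higher, in place of 52.7% and 50%. The falls of Twist1, Twist2, Snai1 and Snai2 in Active against Quiescent were called under every scaling tried. Their sizes were smaller with library totals alone, at 24.5-fold for Twist1, 26.6-fold for Twist2, 7.40-fold for Snai1 and 1.52-fold for Snai2 (edgeR adjusted p = 0.041 for Snai2). Directions of Zeb1 against Quiescent, and of Snai1 in UVB against Quiescent, flipped without the factors, to 0.70 for Zeb1 and 0.40 for Snai1 in UVB and 0.44 for Zeb1 in Active.

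Set against each other within a library, the factors made up a different mixture in each group. For this, counts were divided by the relative transcript length that the deposited table uses, which is 8.02 times that of Twist2 for Zeb2 and 5.05 times for Zeb1, so the shares compare levels per length. Zeb2 took 44.5% ± 10.6 of the summed level in UVB, 66.1% ± 3.97 in Active and 12.2% ± 3.13 in Quiescent (SD, n = 3 each). Twist1 took 19.8% ± 5.27 in UVB, 4.80% ± 1.28 in Active and 48.4% ± 4.16 in Quiescent. Zeb2 thus ranked first in every UVB and Active library and Twist1 ranked first in every Quiescent library.

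Twist2 held 11.5% ± 4.82 of the length-scaled sum in UVB, 2.17% ± 0.76 in Active and 23.1% ± 3.01 in Quiescent, the second place in Quiescent. Zeb1 held 10.3% ± 0.74 in UVB, 18.2% ± 1.98 in Active and 5.45% ± 0.45 in Quiescent. Snai1 held 10.1% ± 1.77, 2.21% ± 0.62 and 6.77% ± 1.45 in UVB, Active and Quiescent. Snai2 held 3.75% ± 0.18, 6.47% ± 1.17 and 4.08% ± 0.43 in the same groups. Neighbours in the order of levels were not always apart. In UVB the ranges of Twist1 and Twist2 overlapped, as did those of Twist2, Zeb1 and Snai1. In Active those of Snai2 and Twist1 overlapped, as did those of Snai1 and Twist2, and in Quiescent those of Snai1 and Zeb1 did.

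**Figure D3:**
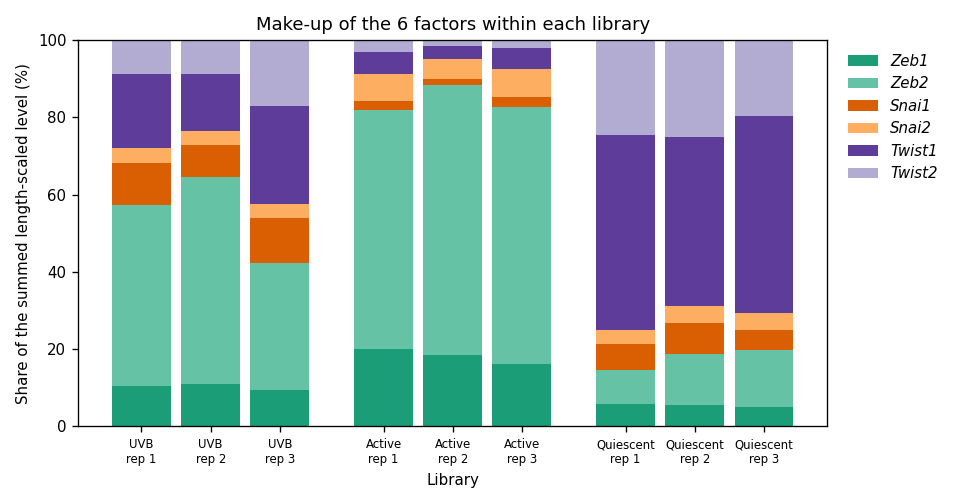
Share of each factor in the summed length-scaled level of the 6 factors, in percent, with 1 stacked bar per library. ZEB genes fill most of each Active bar, TWIST genes fill most of each Quiescent bar, and the UVB bars hold sizeable shares of both.

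Ratios of paralogs within a library do not depend on the scaling between libraries. Per length, Snai2 over Snai1 had a log2 ratio of -1.43, -1.15 and -1.68 in the UVB libraries, 1.51, 1.76 and 1.45 in Active, and -0.94, -0.88 and -0.31 in Quiescent. Snai1 was thus the more abundant SNAI RNA in every UVB and Quiescent library, and Snai2 in every Active library. The difference was -0.71 ± 0.25 SE for UVB against Quiescent, 2.28 ± 0.22 for Active against Quiescent and -2.99 ± 0.18 for UVB against Active, with no overlap in any of them. An exact two-sided permutation test gave p = 0.1 for each, the smallest that 3 libraries against 3 allow, and 0.18 after adjustment over the 9 ratio tests.

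Zeb2 over Zeb1 had a mean log2 ratio of 2.08 ± 0.26 in UVB, 1.87 ± 0.21 in Active and 1.13 ± 0.49 in Quiescent (SD, n = 3 each). Zeb2 exceeded Zeb1 in every library, and the UVB and Active ratios lay over every Quiescent ratio (differences of 0.95 and 0.73, exact permutation p = 0.1 and adjusted p = 0.18 for each). Twist2 over Twist1 was -0.83 ± 0.28 in UVB, -1.16 ± 0.29 in Active and -1.07 ± 0.29 in Quiescent. These TWIST ratios overlapped in all 3 comparisons, with exact permutation p of 0.3 to 0.7, while the levels themselves spanned more than 40-fold.

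The genes nearest to each factor were taken by the root mean square difference between gene-centred log2 CPM profiles over the 9 libraries, among 12209 genes. Nearest to Twist1 were Igsf10, Prrx2 and Prrx1, at 0.16, 0.21 and 0.23 log2 units, and Twist2 was the 5th nearest gene at 0.26. Prrx1 and Prrx2 encode homeodomain factors of limb and dermal mesenchyme. Nearest to Twist2 were Fam105a, Slit3 and Srpx at 0.16, 0.24 and 0.26, with Twist1 the 6th nearest. Nearest to Snai1 were Osr1, Eltd1 and Pde2a at 0.23 to 0.25, where Eltd1 is a receptor of endothelial cells. Zeb2 lay nearest to Yy2, Rsf1 and Smc3 at 0.18 to 0.20, Zeb1 to Rfx5, Akap8l and Caap1 at 0.08, and Snai2 to Ccng2, Slc25a16 and Rnf103 at 0.16 to 0.17. In this measure flat genes lie close to other flat genes, so the distances of Zeb1 are small by construction.

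Markers of other cell types differed between the groups as well, and not all in the same order. Of the 8 fibroblast markers, 7 were lower in UVB than in Quiescent and 8 were lower in Active than in Quiescent, and none was at 0 in any group. The 7 endothelial markers summed to 175 to 294 CPM in UVB, 22.2 to 27.0 CPM in Active and 353 to 512 CPM in Quiescent, none of them at 0, with 4 lower in UVB and 7 lower in Active than in Quiescent. On library totals alone, 1 endothelial marker was lower in UVB, at a list median of -0.25 in place of -0.97, and 7 were lower in Active. The 8 myeloid markers summed to 494 to 1022 CPM in UVB, 33.6 to 76.5 CPM in Active and 149 to 1541 CPM in Quiescent, none at 0. The sums of 5 mural cell markers overlapped, at 485 to 993 CPM in UVB, 501 to 597 CPM in Active and 423 to 529 CPM in Quiescent. Of these, 1 was higher and 4 were lower in each contrast with Quiescent. The 6 Schwann cell markers were lowest in Quiescent, summing to 471 to 677 CPM in UVB, 349 to 573 CPM in Active and 45.9 to 81.0 CPM in Quiescent. Zeb2 was higher in UVB than in Quiescent, and there 8 of 10 pigment markers, 5 of 6 T cell markers and the 4 mast cell markers tested were higher too, as was 1 of 8 myeloid markers. The part of these cell types in the levels of the factors was not tested.

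Expressed per 1000 CPM of the summed fibroblast markers, Twist1 stood at 1.85 ± 0.46 CPM in UVB, 1.07 ± 0.37 CPM in Active and 0.623 ± 0.027 CPM in Quiescent (SD, n = 3 each). Twist2 stood at 0.834 ± 0.35 CPM, 0.367 ± 0.12 CPM and 0.235 ± 0.055 CPM in the same order of groups. On this scale the group means of each TWIST gene lay within 4-fold of each other, and every UVB library lay over every library of the other groups. Snai1 stood at 0.914 ± 0.13 CPM in UVB, 0.480 ± 0.19 CPM in Active and 0.0865 ± 0.028 CPM in Quiescent. Zeb2 stood at 26.1 ± 7.12 CPM in UVB, 90.6 ± 15.0 CPM in Active and 0.985 ± 0.26 CPM in Quiescent. Most of the marker sum is collagen RNA. Col1a1, Col1a2 and Col3a1 had means of 117729, 131986 and 114133 CPM in Quiescent, against 18616 CPM for Dcn, the next highest marker. The order of groups on this scale is therefore mainly relative to collagen RNA, and that of UVB and Active depends on the marker. In UVB against Active, the log2 fold change was 3.20 for Twist1 and 3.62 for Twist2. It was 0.43 for Fbln1 (not called), 1.69 for Col3a1, 3.15 for Col1a1 and 3.24 for Col1a2. For Dcn, Lum, Dpt and Pdgfra it was 3.29, 3.42, 3.72 and 3.75, so relative to these Twist1 was not higher in UVB. Ratios to the markers are a description and were not tested.

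**Figure D4:**
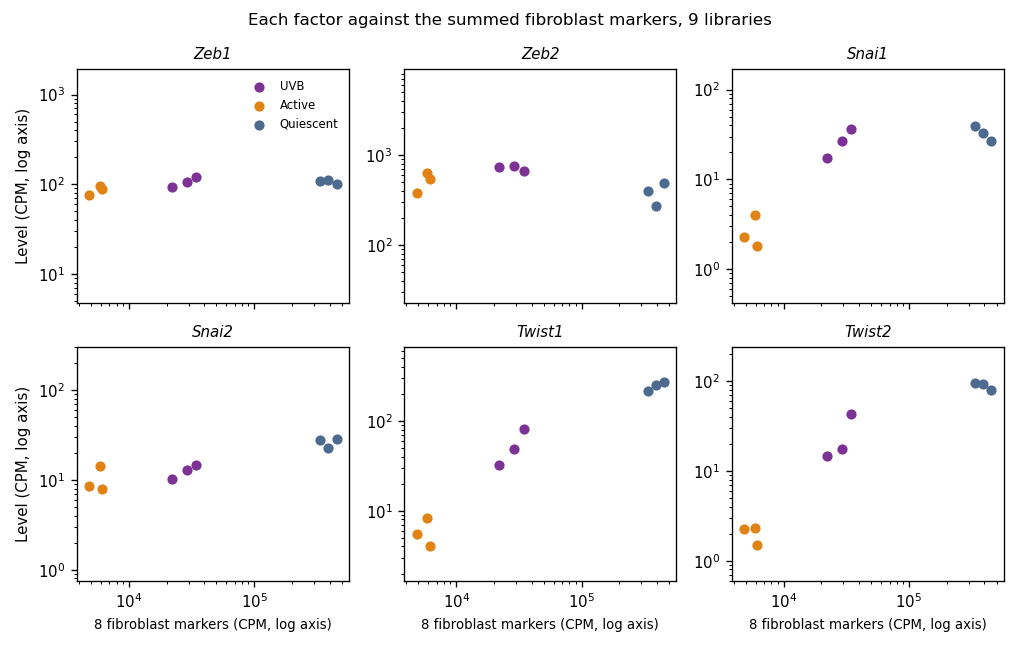
Level of each factor against the summed level of 8 fibroblast markers, both in CPM on log axes, with 1 point per library. Twist1 and Twist2 climb with the markers across the groups. The Snai1 values of UVB and Quiescent overlap, at marker sums of 22011 to 34436 CPM in UVB and 335838 to 454359 CPM in Quiescent.

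TWIST proteins bind DNA as dimers with E proteins, and ID proteins hold E proteins back. Of the 4 ID and 3 E protein genes, 3 were higher and 2 lower than in Quiescent, both in UVB and in Active, with a median log2 fold change of -0.13 in UVB and -0.40 in Active. Tcf4, an E protein gene, measured 121, 118 and 174 CPM in UVB, 69.0, 65.5 and 67.0 CPM in Active, and 236, 271 and 314 CPM in Quiescent, with no overlap between the groups. It was 1.99-fold lower in UVB (edgeR adjusted p = 0.0015) and 4.07-fold lower in Active (adjusted p = 2.4e-05) than in Quiescent, the order of groups seen for the TWIST genes. The E protein genes Tcf12 and Tcf3 were higher instead, Tcf12 by 1.72-fold in UVB and 1.89-fold in Active, and Tcf3 by 1.67-fold and 1.65-fold.

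Id4 was 3.04-fold higher in UVB and 2.80-fold higher in Active than in Quiescent (edgeR adjusted p = 0.0041 and 0.0045). Id3 was called lower in both at edgeR adjusted p of 0.039, and that call was lost in 4 of the 9 fits that left out 1 library, with adjusted p of up to 0.144 in UVB, without UVB replicate 1, UVB replicate 2, Active replicate 1 or Quiescent replicate 2, and up to 0.163 in Active, without UVB replicate 1, Active replicate 1, Active replicate 2 or Quiescent replicate 2. Without Quiescent replicate 2 its log2 fold change was -0.86 in UVB and -0.80 in Active, against -1.46 and -1.40 with all libraries. Tcf4 was the only gene of the 7 called between UVB and Active, 2.05-fold higher in UVB (edgeR adjusted p = 0.0047). With library totals alone the list medians were 0.57 in UVB and 0.33 in Active, with 3 genes higher and none lower in UVB and 3 higher and 1 lower in Active. The lower calls of Tcf4 in UVB and of Id3 in both were then lost, and that of Tcf4 in Active held.

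SNAI and ZEB proteins silence genes through corepressors, and 20 genes of such complexes were followed. In UVB against Quiescent 12 were higher and 1 was lower, with a list median of 0.55 against 0.021 for all genes, and in Active against Quiescent 12 were higher and 2 were lower, with a median of 0.60 against 0.007. On library totals alone, 18 were higher and none lower in both, with medians of 1.28 in UVB and 1.35 in Active. Ezh2, the methyltransferase of Polycomb complex PRC2, measured 78.9, 111 and 57.1 CPM in UVB, 86.5, 91.8 and 84.6 CPM in Active, and 10.9, 12.7 and 13.3 CPM in Quiescent. It was 6.71-fold higher in UVB (edgeR adjusted p = 4.2e-05) and 7.13-fold higher in Active (adjusted p = 1.8e-05), with every UVB and Active library over every Quiescent library. Suz12, its partner, was 2.44-fold higher in UVB and was also higher in Active (log2 fold change 0.93, edgeR adjusted p = 7.2e-04). Suv39h1, a histone H3 lysine methyltransferase that Snai1 recruits, was 2.84-fold higher in UVB and 3.69-fold higher in Active.

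Smarca4, the chromatin remodelling ATPase that works with ZEB1, was 2.43-fold higher in UVB and 2.65-fold higher in Active than in Quiescent (edgeR adjusted p = 4.1e-04 and 1.5e-04). The lower genes were Wtip in both, a LIM domain protein of the family that bridges SNAI proteins to their partners (log2 fold change -0.67 in UVB and -0.77 in Active), and Sirt1 in Active (-0.70), and with library totals alone Wtip in UVB and Sirt1 in Active turned to 0.053 and 0.044 and the call of Wtip in Active was lost. The call of Sirt1 was lost without Active replicate 1, Active replicate 2, Quiescent replicate 2 or Quiescent replicate 3, with adjusted p of 0.063 to 0.099. Between UVB and Active only Prmt5 was called, 1.31-fold lower in UVB (edgeR adjusted p = 0.036), and this call was lost without UVB replicate 1, UVB replicate 3 or any 1 Active library (adjusted p of 0.080 to 0.124).

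The SNAI, ZEB and TWIST proteins are turned over fast, and 20 genes of the enzymes that mark, protect or degrade them were listed. In UVB against Quiescent 7 were higher and 5 lower, in Active against Quiescent 5 were higher and 6 lower, and list medians were 0.25 and 0.18. Of all genes tested, 49% and 58.3% were called in these 2 comparisons, so the counts say little about the list. With library totals alone, the counts were 18 higher and none lower in UVB and 14 higher and none lower in Active, so every lower call, those of Rfwd2 among them, was lost. Siah1b, of the SIAH ubiquitin ligases, was 2.59-fold higher in UVB and 4.05-fold higher in Active than in Quiescent (edgeR adjusted p = 0.0056 and 5.4e-04). Rfwd2, the ubiquitin ligase COP1, was 2.16-fold and 2.07-fold lower in the same contrasts (edgeR adjusted p = 0.0012 and 0.0010). Between UVB and Active, Fbxo11 and Pak1 were called higher in UVB, and both calls were lost when 1 of the libraries was left out: that of Fbxo11 without Active replicate 1 or 2 (adjusted p of 0.051 and 0.056), and that of Pak1 without any 1 UVB or Active library (adjusted p of 0.055 to 0.103).

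Genes of epithelial junctions and identity, the classical targets of SNAI and ZEB repression, numbered 28, of which 27 could be tested. In UVB against Quiescent 2 were higher and 1 lower, in Active against Quiescent 3 were higher and 2 lower, and in UVB against Active 1 was higher and 1 lower. The list medians were -0.34, 0.49 and -0.81 on the log2 scale. Against Quiescent, library totals alone gave 6 higher and none lower in UVB and 8 higher and none lower in Active, with the lower calls of Inadl and Cldn7 lost. Shares called were thus under those of all genes in each comparison, with wide spreads between libraries at low levels. The summed level of 6 keratinocyte markers was 229 to 572 CPM in UVB, 671 to 1085 CPM in Active and 106 to 1883 CPM in Quiescent, none of them at 0, and its part in these genes was not tested.

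Cdh1, which encodes E-cadherin, measured 53.5, 27.6 and 33.6 CPM in UVB, 145, 96.2 and 98.9 CPM in Active, and 23.1, 15.2 and 0.650 CPM in Quiescent. The 3 groups did not overlap, although UVB was not called against Quiescent (edgeR adjusted p = 0.139) or Active (adjusted p = 0.178). Cdh1 was 8.64-fold higher in Active than in Quiescent (3.11 ± 0.83, edgeR adjusted p = 0.011). Its log2 fold change was 3.84 without Quiescent replicate 1, whose keratinocyte markers reached 1883 CPM. Cdh3, or P-cadherin, measured 13.05, 5.75 and 22.4 CPM in UVB, 138, 81.6 and 128 CPM in Active, and 6.29, 4.65 and 0.709 CPM in Quiescent. It was 29.2-fold higher in Active than in Quiescent (4.87 ± 0.73, edgeR adjusted p = 4.8e-04) and 8.43-fold lower in UVB than in Active (adjusted p = 0.013), the last with an adjusted p of 0.0502 without UVB replicate 1. The 10 pigment markers summed to 897 to 1067 CPM in UVB, 7765 to 12637 CPM in Active and 74.4 to 122 CPM in Quiescent. That is the order of the group means of Cdh1 and Cdh3, and the part of pigment cells in these genes was not tested.

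Of the other junction genes called, Epcam was higher and Cldn7 and Inadl were lower in Active, and Lama5 and Spint1 were higher and Inadl lower in UVB, each against Quiescent. Inadl, a scaffold protein of tight junctions, was 2.64-fold lower in UVB and 3.29-fold lower in Active (edgeR adjusted p = 0.020 and 0.0065). Lama5, a laminin chain, was 1.88-fold higher in UVB than in Quiescent and higher by a log2 fold change of 0.84 than in Active (edgeR adjusted p = 0.013 and 0.036). Several of these calls were lost when any 1 of several libraries was left out. That of Epcam (adjusted p = 0.049) was lost without UVB replicate 1 or 3, Active replicate 1 or 3, or Quiescent replicate 2 or 3, at adjusted p of up to 0.127, and its log2 fold change was 3.22 without Quiescent replicate 1 and 2.18 with it. That of Cldn7 (adjusted p = 0.021) was lost without Active replicate 2 or 3 or Quiescent replicate 1, at up to 0.075.

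The call of Spint1 (adjusted p = 0.043) was lost without any of 7 libraries, all but UVB replicate 2 and Active replicate 3, at adjusted p of up to 0.107. That of Inadl in UVB was lost without UVB replicate 1 or 2 or Quiescent replicate 1 or 2, at up to 0.069, and that of Lama5 against Active without any UVB library or Active replicate 1 or 2, at up to 0.126. All these are edgeR values.

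Epcam, an adhesion protein of epithelia, shows the E-boxes in a target promoter, in the window chr17:87635729-87636028 on the plus strand of GRCm38.p6, with E-boxes in capitals.
Epcam: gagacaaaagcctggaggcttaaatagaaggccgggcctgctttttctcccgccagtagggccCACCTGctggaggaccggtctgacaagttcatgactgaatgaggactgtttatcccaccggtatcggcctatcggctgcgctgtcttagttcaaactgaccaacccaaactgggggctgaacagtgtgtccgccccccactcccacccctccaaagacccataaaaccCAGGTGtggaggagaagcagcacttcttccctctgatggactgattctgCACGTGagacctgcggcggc
The window held CACCTG at -187, CAGGTG at -19 and a different E-box, CACGTG, at 30. Of the 21 junction genes with a promoter in the RefSeq table, 18 (85.7%) held CACCTG or CAGGTG in at least 1 window, against 22.6% of all 27025 genes and 1 of the 10 mesenchymal genes that the table holds. Cdh1 and Snai2 were not matched there. This is a count of letters in a list of known targets.

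**Figure D5:**
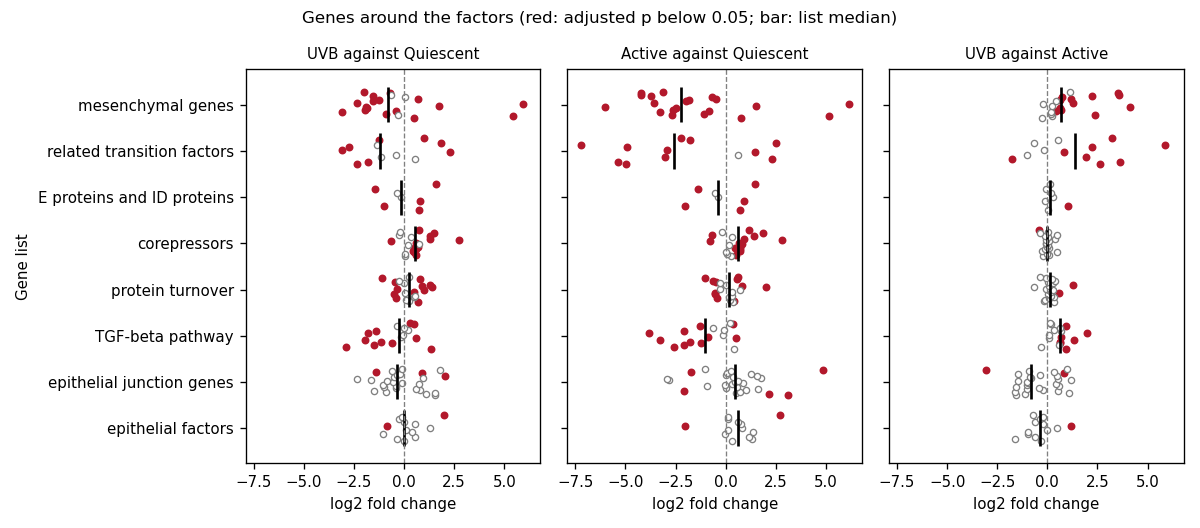
Log2 fold changes of the genes around the factors, with 1 point per gene, red where the adjusted p is below 0.05, and a bar at the median of each list. Mesenchymal genes and related transition factors spread to both sides with medians of -0.80 and -1.20 in UVB and -2.23 and -2.57 in Active against Quiescent, and junction genes mostly miss the threshold; without scaling factors the medians against Quiescent move up, and those of the junction genes, TGF-beta pathway and E and ID proteins in UVB and of the E and ID proteins in Active turn positive.

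Mesenchymal genes moved in both directions. Of 20 such genes, 5 were higher and 12 lower in UVB than in Quiescent, Active had 4 higher and 16 lower against Quiescent, and 12 were higher and none lower in UVB than in Active. Against Quiescent, library totals alone gave 7 higher and 8 lower in UVB and 4 higher and 12 lower in Active. Cdh2, or N-cadherin, measured 154, 195 and 106 CPM in UVB, 119, 121 and 142 CPM in Active, and 3.597, 4.95 and 2.07 CPM in Quiescent. It was 42.8-fold higher in UVB (edgeR adjusted p = 1.3e-05) and 35.9-fold higher in Active (adjusted p = 8.5e-06), with no overlap with Quiescent. Tnc, which encodes tenascin C, Postn and Vim were also higher in both, and Col6a1 in UVB.

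Vim, the intermediate filament vimentin, was 4092 ± 428 CPM in UVB, 4978 ± 116 CPM in Active and 2939 ± 202 CPM in Quiescent (SD, n = 3 each). Its call in UVB (edgeR adjusted p = 0.022) was lost without UVB replicate 1 or Quiescent replicate 1 or 2, at adjusted p of up to 0.083. Tnc was 1347 ± 727 CPM in UVB, 1568 ± 187 CPM in Active and 22.1 ± 19.4 CPM in Quiescent, with log2 fold changes of 5.92 in UVB and 6.14 in Active, and of 6.94 and 7.16 without Quiescent replicate 1. Postn lost its call in UVB without Quiescent replicate 1 (adjusted p = 0.053) and in Active without Active replicate 2 or Quiescent replicate 1 (adjusted p of up to 0.074), and without Quiescent replicate 3 its log2 fold changes were 2.63 in UVB and 2.38 in Active, against 1.77 and 1.52 with all libraries.

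Thy1, Mmp2 and Mmp14, genes of fibroblast surface and matrix breakdown, were among the lower genes in Active. Thy1 measured 279, 195 and 310 CPM in UVB, 24.3, 19.7 and 25.3 CPM in Active, and 483, 466 and 333 CPM in Quiescent, without overlap between the groups, and was 18.5-fold lower in Active than in Quiescent (edgeR adjusted p = 4.5e-06) and 11.3-fold higher in UVB than in Active (adjusted p = 1.4e-04). Mmp2 was 3.87-fold lower in UVB and 6.19-fold lower in Active than in Quiescent, and Mmp14 was 3.58-fold and 5.61-fold lower. Pdgfrb and Lox, a fibroblast and mural cell receptor and a collagen crosslinker, were 12.0-fold and 17.6-fold higher in UVB than in Active, and the log2 fold change of Lox was 3.40 without UVB replicate 3 and 4.14 with it.

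Other transcription factors linked to the transition were listed too, and 12 of 20 could be tested. In UVB against Quiescent 3 were higher and 5 lower, in Active against Quiescent 3 were higher and 8 lower, and in UVB against Active 7 were higher and 1 lower. Those against Quiescent became 4 higher and 4 lower in UVB and 3 higher and 7 lower in Active with library totals alone. Prrx1 measured 123, 109 and 229 CPM in UVB, 21.8, 22.2 and 30.6 CPM in Active, and 770, 722 and 826 CPM in Quiescent, the order of the TWIST genes with no overlap. It was 5.03-fold lower in UVB (edgeR adjusted p = 2.7e-04) and 31.1-fold lower in Active (adjusted p = 7.8e-06). Prrx2 was 3.43-fold lower in UVB and 41.6-fold lower in Active, with no overlap between the groups.

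The higher genes against Quiescent were Klf8, Tbx2 and Meox1 in UVB and Klf8, Tbx2 and Foxc1 in Active. Tbx2, a T-box factor that acts in melanocytes and melanoma, was 3.63-fold higher in UVB and 5.75-fold higher in Active (edgeR adjusted p = 0.0014 and 1.8e-04). Klf8, a zinc finger repressor of Cdh1, was 4.88-fold higher in UVB and measured 7.33 ± 0.68 CPM in UVB, 4.17 ± 0.32 CPM in Active and 1.49 ± 0.38 CPM in Quiescent. Foxc1 was 4.88-fold higher in Active than in Quiescent and the gene that was lower in UVB than in Active, by 3.38-fold (edgeR adjusted p = 0.0053). The call of Meox1 in UVB against Quiescent (adjusted p = 0.038) was lost without UVB replicate 3, any 1 Active library or Quiescent replicate 2 or 3, at adjusted p of up to 0.125.

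TGF-beta is the signal best known to induce SNAI, ZEB and TWIST genes. Of 16 genes of its ligands, receptors and SMADs, 4 were higher and 7 lower in UVB than in Quiescent, Active had 2 higher and 9 lower against Quiescent, and 7 were higher and none lower in UVB than in Active. Without scaling factors, the counts against Quiescent were 7 higher and 4 lower in UVB, where the balance turned, and 6 higher and 7 lower in Active. Tgfb1, a ligand, measured 93.4, 88.6 and 89.6 CPM in UVB, 40.2, 45.3 and 58.5 CPM in Active, and 35.1, 48.5 and 23.4 CPM in Quiescent. UVB lay over both other groups, which overlapped, and Tgfb1 was higher by a log2 fold change of 1.34 in UVB than in Quiescent (edgeR adjusted p = 0.0021). Tgfb2 was 7.45-fold lower in UVB than in Quiescent and also lower in Active (log2 fold change -2.60, edgeR adjusted p = 1.8e-04). Tgfb3 was 2.83-fold lower in UVB and 4.28-fold lower in Active than in Quiescent.

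Tgfbr2, the ligand-binding receptor, measured 466, 485 and 589 CPM in UVB, 273, 314 and 404 CPM in Active, and 1052, 1109 and 1290 CPM in Quiescent, and was 2.24-fold lower in UVB and 3.48-fold lower in Active (edgeR adjusted p = 7.9e-04 and 4.9e-05). Tgfbr3, a coreceptor, was 3.85-fold lower in UVB and 9.73-fold lower in Active, and 2.53-fold higher in UVB than in Active, where its adjusted p was 0.058 without Active replicate 2. Smad2 and Smurf1 were higher in both contrasts with Quiescent, and Smurf2 in UVB. Smurf1 in Active lost its call without Active replicate 1 or 3 (adjusted p of 0.051 and 0.061), and Smurf2 without any of 7 libraries, all but UVB replicate 3 and Quiescent replicate 3 (adjusted p of up to 0.122).

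Factors that hold cells in the epithelial state were nearly all under the threshold, with 1 higher and 1 lower of 13 tested in each contrast with Quiescent. Without scaling factors the counts were 2 higher and none lower in UVB, where the call of Klf4 was lost, and 2 higher and 1 lower in Active. Klf4 was 4.15-fold lower in Active than in Quiescent (edgeR adjusted p = 7.0e-04). Its calls in UVB, 1.82-fold lower than in Quiescent and 2.28-fold higher than in Active, were lost without 7 and 4 of the 9 libraries, at adjusted p of up to 0.150 and 0.101.

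ZEB messages are the classical targets of the miR-200 family and miR-205, which hold epithelial cells in place, so their mature sequences from RefSeq (GRCm38.p6) are shown, with the seed, bases 2 to 8, in capitals. They fall into 3 groups by seed: miR-200b, miR-200c and miR-429 share AAUACUG, miR-200a and miR-141 share AACACUG, and miR-205 has CCUUCAU.
mmu-miR-200b-3p: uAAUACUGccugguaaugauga
mmu-miR-200c-3p: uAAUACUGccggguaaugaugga
mmu-miR-429-3p: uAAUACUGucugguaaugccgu
mmu-miR-200a-3p: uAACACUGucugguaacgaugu
mmu-miR-141-3p: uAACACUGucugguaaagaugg
mmu-miR-205-5p: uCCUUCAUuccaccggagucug

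Their 6 precursor genes are in the table, although libraries of poly(A) RNA measure only longer transcripts over these loci and not the mature microRNAs. No fragment was counted at any of the 6 in the 3 UVB libraries or the 3 Active libraries, where a count of 0 over a group allows up to 3 fragments per locus. The Quiescent libraries held 48 fragments over the 6 loci, with 1, 18 and 29 in replicates 1, 2 and 3, of which Mir205 had 21 and Mir200b had 10. The 6 keratinocyte markers summed to 1883, 532 and 106 CPM in the same 3 replicates, and to 671 to 1085 CPM in Active. The source of the fragments at these loci was not tested. The mean over the Quiescent libraries was at most 0.41 CPM at any of these loci, and they were not tested.

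Of possible confusion between genes, the GENCODE M21 annotation of GRCm38 places Gm10125 on the minus strand at the head of Zeb1 (chromosome 18, 5591860 to 5775467, plus strand), and it had 0 to 40 fragments per library. Zeb2 lies on chromosome 2 at 44983632 to 45117395 on the minus strand and overlaps the antisense gene Zeb2os, and Twist2 lies on chromosome 1 at 91801461 to 91848028 on the plus strand and overlaps the antisense gene Gm29100. Neither antisense gene is a row of the table, and the sources used here do not say whether counting used the strand. Small RNA genes and pseudogenes inside Zeb1, Zeb2 and Twist2 are not listed singly. Snai1 on chromosome 2, Snai2 on chromosome 16 and Twist1 on chromosome 12 overlap no other annotated gene.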

How the data were processed

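RNA was measured in 9 libraries, 3 each of UVB, Active and Quiescent, grouped by their labels. The submitters' processing notes name Cuffdiff 2.2.1, TopHat2 2.0.13, cutadapt 1.8 and mm10, without settings. The deposited table lists, per gene and library, estimated counts of fragments before scaling, and FPKM values that the authors scaled between libraries, per the file headers. After rounding, these estimated counts went into the quasi-likelihood test of edgeR 4.0.16 (R 4.3.3; TMM factors, 1 fit of all 9 libraries without a block). The function filterByExpr removed 8283 genes and left 15078. P-values were adjusted by the Benjamini-Hochberg method over all genes tested, with a threshold of 0.05, two-sided. A standard error is the log2 fold change over the square root of F, and intervals for 0 fragments cover counting error only. Libraries within a group differed by more than sampling noise (chi-square per degree of freedom 24.6 to 116.5), and the biological coefficient of variation was 0.28. The edgeR steps were tested on simulated counts in which few genes changed, in both directions, and the groups otherwise shared their means. That simulation holds no wide shift between groups, so it does not bear on how scaling affects the contrasts with Quiescent.

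Alternatives were RLE, upper quartile or no scaling factors, DESeq2 1.42.0, limma 3.58.1 on log2 of FPKM with a pseudocount of 1 or 0.1, omission of the filter, a strict filter of 50 fragments in 3 libraries, a replicate block, the 6 libraries of a comparison alone, and leaving out each library. The members and the gene lists were chosen with earlier results of these data known. Named were the members, up to 4 genes per list and comparison with the smallest adjusted p, and 3 nearest profiles per member. Epcam, Vim, Tnc, Postn, Wtip, Sirt1, Smad2, Smurf1, Smurf2 and Id3 were named after their values were seen, to complete small counts. A result of 1 listed gene is not reported here.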

Additional observations from a re-analysis of the deposited data

How the results depend on the processing

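Over 3 comparisons, calls of the 6 factors held under the alternatives tried, with these exceptions. With library totals alone, Zeb1 was 0.70 higher in UVB and 0.44 higher in Active than in Quiescent, Snai1 was 0.40 higher in UVB than in Quiescent (adjusted p = 0.307), Snai2 in UVB against Quiescent was -0.33 and lost its call, and Zeb2 in Active against Quiescent reached 1.17 (adjusted p = 0.0013). Members called higher were then 2 in each contrast with Quiescent, genes called were 8746 higher and 1246 lower in UVB and 8651 higher and 2206 lower in Active, and Wtip in UVB and Sirt1 in Active turned to 0.053 and 0.044. Zeb1 in Active against Quiescent passed the threshold under RLE (-0.32), DESeq2 (-0.32), limma on log2(FPKM + 1) (-0.30) and log2(FPKM + 0.1) (-0.32) and the strict filter (-0.33). Leaving out 1 library gave -0.36 to -0.21 for it, and it passed without UVB replicate 3 or Active replicate 3. Zeb1 in UVB against Quiescent ran from -0.11 to 0.063 when 1 library was left out, above 0 without UVB replicate 2 (0.063) or Quiescent replicate 1 (0.0072). Leaving out 1 library gave 999 to 2548 genes higher and 453 to 1678 lower in UVB against Active, and the counts fell to between 999 and 1395 higher and between 453 and 591 lower without UVB replicate 1, Active replicate 1 or Active replicate 2, against 2226 and 1386 with all libraries. The cause was not tested. Replicate numbers did not pair the libraries: same-numbered r was -0.189 to 0.193 and 4 of 9 libraries correlated best with their own number. With a replicate block, calls numbered 6809 in UVB and 8223 in Active against Quiescent and 2830 in UVB against Active, in place of 7393, 8786 and 3612. Low fragment counts limit Twist2 and Snai1 in Active. Exact tests of ratios cannot go below 0.10 with 3 libraries against 3.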
